A study of Mus musculus with 2 samples.

Results

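The lymphocyte microRNAs (miRNAs) mmu-miR-150-5p, mmu-miR-181a-5p, mmu-miR-181b-5p, mmu-miR-181c-5p, mmu-miR-181d-5p and mmu-miR-342-3p were followed in mouse femur after a sham operation and after ovariectomy (OVX), in which the ovaries are taken out. They are written without the species prefix from here on except where their main value is given. They were taken by name from a single-colour Agilent miRNA array, with every probe of each, and are 6 of the 1881 mouse miRNAs on it. The sham sample and the OVX sample each held the femurs, bone and marrow together, of 4 pooled female mice of C57BL/6 background aged 9 months. The time between operation and collection is not given in the sources used here. Each group is 1 pooled sample on 1 array, so no test could be made, no p-value is given, and "higher" and "lower" describe these arrays only. Both arrays carried the same slide number and scan time in their headers.

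miRNAs guide a silencing complex to messenger RNAs, mainly through bases 2 to 8 of the miRNA, called the seed. miR-150 is a miRNA of mature, resting B and T cells, is low in their precursors, and restrains the transcription factor Myb. The miR-181 family is prominent in early B cells of the marrow and in developing T cells of the thymus, where miR-181a tunes signalling through the T-cell receptor. miR-342 lies inside Evl, a gene of actin assembly active in blood cells, and is found in lymphocytes and in other white cells. Marrow is the site of B-cell formation in adult mice, and loss of estrogen is known to raise B-cell precursors there. None of these miRNAs belongs to lymphocytes alone, and in whole femur fewer cells of a type and less RNA per cell cannot be told apart.

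RefSeq (build GRCm38.p6) held the mature sequences of 5 of the 6. They are shown 5′ to 3′ with the seed in capitals, because the shared seed is what makes miR-181a to miR-181d a family.
miR-181a-5p: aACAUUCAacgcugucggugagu
miR-181b-5p: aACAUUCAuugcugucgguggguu
miR-181c-5p: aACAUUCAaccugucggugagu
miR-181d-5p: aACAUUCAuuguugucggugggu
miR-342-3p: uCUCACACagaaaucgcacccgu
The 4 miR-181 members had the same seed, ACAUUCA, and no other mature miRNA of the RefSeq table had it. miR-342-3p was the only entry of that table with its own seed, CUCACAC.

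The array reads each miRNA from its 3′ end, where the miR-181 members are alike, and 2 probes of neighbouring length stand for each. The longer probe for each miR-181 member is shown next, 5′ to 3′ as deposited. Capitals mark bases that do not pair with miR-181a-5p when the 3′ ends are aligned without gaps.
miR-181a-5p probe: actcaccgacagcg
miR-181b-5p probe: acCcaccgacagcA
miR-181c-5p probe: actcaccgacagGTtGAaT
miR-181d-5p probe: acCcaccgacaAcAAtg
Counting from the 5′ end of the probe, the miR-181a-5p probe of 14 bases differed from the complement of miR-181b-5p by T3C and G14A, and the miR-181a-5p probe of 13 bases by T3C alone. The miR-181b-5p probe of 14 bases differed from the complement of miR-181d-5p by G12A alone. The probes of 18 and 19 bases for miR-181c-5p paired with miR-181a-5p over an unbroken stretch of 12 bases. Just beyond it miR-181c-5p lacks a base that miR-181a-5p has, which shifts the rest and gives the capitals there. With that base looped out, the remaining bases of both probes could pair with miR-181a-5p too. How far each probe also takes up the other members of the family was not tested.

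By the positions the files list on mouse build mm9, the miR-150-5p probes match chromosome 7 from 52377139 to 52377153. The miR-181a-5p probes match 2 places, chromosome 1 from 139863054 to 139863067 and chromosome 2 from 38708270 to 38708283. Those of miR-181b-5p match just beyond them, chromosome 1 from 139863236 to 139863249 and chromosome 2 from 38709374 to 38709387. A probe match thus cannot tell which gene copy the RNA came from. The miR-181c-5p probes match chromosome 8 from 86702792 to 86702809 and the miR-181d-5p probes chromosome 8 from 86702628 to 86702643, both on the minus strand. The files list no match for the miR-342-3p probes. In the RefSeq gene table Mir181a-2 and Mir181b-2 overlap Nr6a1, a nuclear receptor gene, and also Nr6a1os, a long noncoding RNA gene. Mir342 overlaps Evl, and Mir150, Mir181a-1, Mir181b-1, Mir181c and Mir181d overlap no listed gene. Only positions were compared, without regard to strand.

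Signals are processed intensities after background subtraction, in arbitrary units. A probe counts as present on an array when over 50% of its spots are well above background. The OVX array was the brighter one: at the 75th percentile of the 350 probes present on both arrays it was 2.02 times as bright as the sham array. Each array was therefore scaled to that percentile, differences are the OVX level minus the sham level on the log2 scale, and a miRNA's difference is the mean over its probes present on both arrays. The error is the standard error between spots of a probe (spot SE), which holds no variation between mice. Negative control spots had a processed signal of 1.93 ± 2.81 (SD, n = 982 spots) on the sham array and 1.36 ± 2.86 (SD, n = 978 spots) on the OVX array. Of the 6 miRNAs, 4 were measured on both arrays, and miR-181c-5p and miR-181d-5p were present on the OVX array only. Over all 1881 mouse miRNAs, 197 were measured on both arrays and 102 were present on the OVX array only.

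miR-150-5p was much brighter on the OVX array with both of its probes. On the sham array the 16-base probe gave 17.0 at its lowest spot, 53.4 at the median and 66.0 at the highest, with a mean of 46.4 ± 15.9 (SD, n = 15 spots). On the OVX array the same probe gave 177.1, 257.5 and 295.1, with a mean of 253.1 ± 31.5 (SD, n = 15 spots). The unscaled spots of the arrays did not overlap, and the means stood in a ratio of 5.45, against 2.02 for the arrays as a whole. How often unscaled spots failed to overlap over all probes was not counted. The 15-base probe gave 16.1 ± 4.45 (SD, n = 15 spots) on the sham array, where 6 of 15 spots were well above background, and 81.3 ± 12.7 (SD, n = 15 spots) on the OVX array. Its spots did not overlap either, and its ratio was 5.03, but it was not counted as present on the sham array. From the 16-base probe alone the scaled log2 level of mmu-miR-150-5p was -1.48 in sham and -0.04 in OVX, so that OVX stood 1.43 higher (spot SE 0.14), or 2.70-fold. The 15-base probe by itself differed by 1.32 (spot SE 0.12).

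The miR-181 members had smaller ratios. Of their 8 probes 3 were present on both arrays, both of miR-181a-5p and the longer of miR-181b-5p, with ratios of means of 1.75, 1.74 and 1.57, each below the array-wide factor of 2.02. For miR-181a-5p the 14-base probe had 30.02 at its lowest spot, 61.0 at the median and 76.2 at the highest in sham, and 60.0, 101.8 and 124.8 in OVX, so the ranges overlapped. Its 13-base probe had a mean of 21.2 ± 4.51 (SD, n = 14 spots) in sham and 37.2 ± 5.47 (SD, n = 14 spots) in OVX, with ranges that also overlapped. After scaling, mmu-miR-181a-5p differed by -0.21 (spot SE 0.08), or 0.865-fold, with -0.20 and -0.21 from its probes.

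miR-181b-5p, made next to miR-181a from both gene pairs, lay close to it. Its 14-base probe gave 31.6 ± 4.52 (SD, n = 15 spots) in sham and 49.6 ± 4.95 (SD, n = 15 spots) in OVX. Its unscaled spots did not overlap, from 22.3 to 38.0 in sham and from 41.7 to 58.2 in OVX. Their ratio of means was nevertheless below the array-wide factor, so the separation upward did not outlast scaling. After scaling, mmu-miR-181b-5p differed by -0.36 (spot SE 0.06), or 0.779-fold. The 13-base probe, with 2 of 15 sham spots well above background, stood at -0.30 (spot SE 0.14). miR-181a-5p and miR-181b-5p differed from each other by 0.15 (spot SE 0.10) in this contrast.

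miR-181c-5p and miR-181d-5p, the pair on chromosome 8, were dim. The 19-base probe of miR-181c-5p had 12.2 ± 2.305 (SD, n = 15 spots) in sham, with 0 of 15 spots well above background, and 21.8 ± 4.03 (SD, n = 15 spots) in OVX, with 8 of 15. The 17-base probe of miR-181d-5p had 13.3 ± 4.16 (SD, n = 15 spots) in sham, with 1 of 15 spots well above background, and 23.7 ± 2.83 (SD, n = 14 spots) in OVX, with 12 of 14. The bound from the lowest sham signal counted as present was under 1-fold for both, so no fold is given. Their shorter probes were present on neither array. The 18-base probe of miR-181c-5p had means of 6.15 in sham and 12.0 in OVX, a ratio of 1.95. The 16-base probe of miR-181d-5p had 5.34 and 11.2, a ratio of 2.10, above the array-wide factor of 2.02. No difference is given for mmu-miR-181c-5p and mmu-miR-181d-5p, since neither had a probe present in sham.

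miR-342-3p was measured by both probes on both arrays, with every unflagged spot well above background. The 17-base probe had 117.9 ± 6.81 (SD, n = 15 spots) in sham and 281.5 ± 15.6 (SD, n = 15 spots) in OVX. The 16-base probe had 81.4 ± 9.16 (SD, n = 15 spots) in sham and 189.4 ± 10.6 (SD, n = 14 spots) in OVX. Neither probe's unscaled spots overlapped between the arrays, yet the ratios of 2.39 and 2.33 were only slightly above the array-wide factor. Scaled, mmu-miR-342-3p differed by 0.22 (spot SE 0.03), or 1.17-fold, with 0.24 and 0.21 from its probes.

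**Figure D1:**
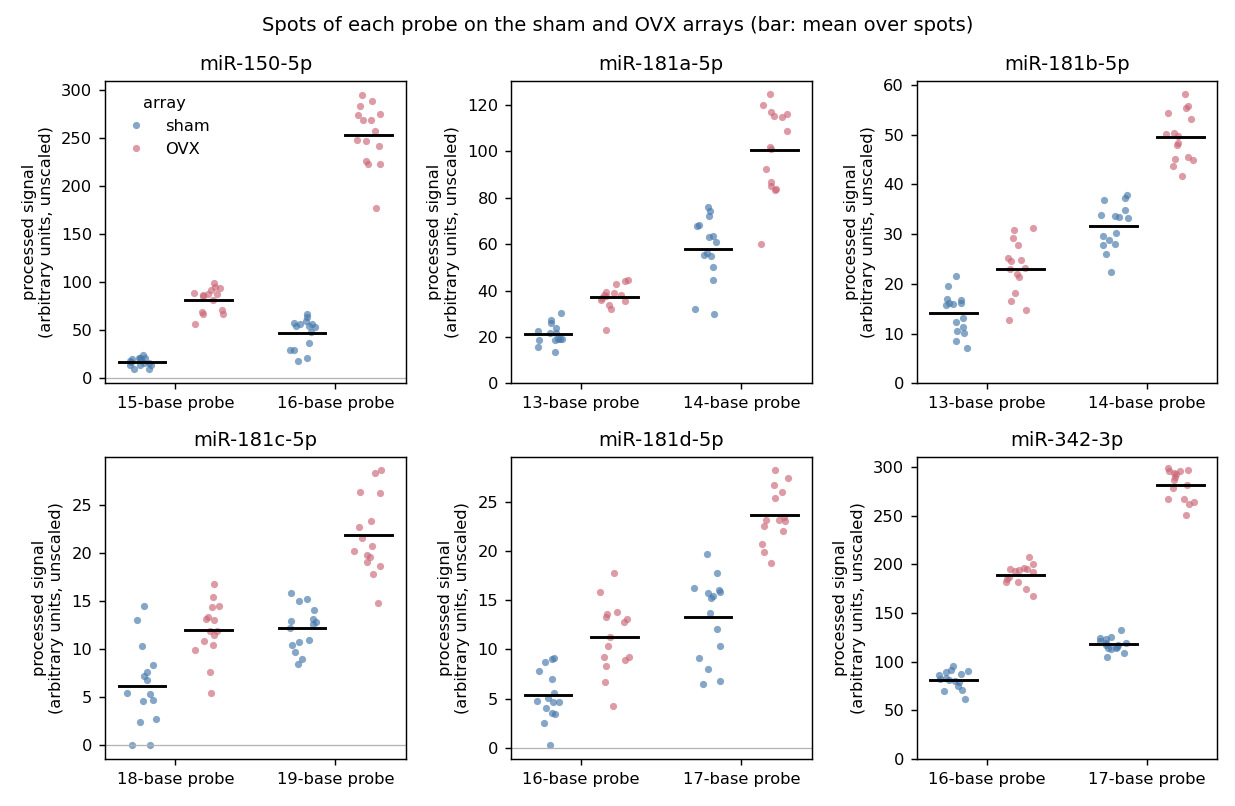
Processed signal (arbitrary units, not scaled between arrays) of every unflagged spot, for both probes of each of the 6 miRNAs on the sham array (blue) and the OVX array (red), with a bar at the mean over spots and a separate vertical scale per miRNA. The OVX spots of miR-150-5p lie far above its sham spots with both probes (means 253.1 against 46.4 with the 16-base probe). The signals are unscaled, and the OVX array was the brighter one by a factor of 2.02.

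In order of difference, miR-150-5p (1.43) stood above miR-342-3p (0.22), which stood above miR-181a-5p (-0.21) and miR-181b-5p (-0.36). The gap between miR-150-5p and the mean of miR-181a-5p and miR-181b-5p was 1.72 (spot SE 0.14), or 3.29-fold. This gap does not depend on how the arrays are scaled by a constant. Between miR-342-3p and the miR-181 mean the gap was 0.51 (spot SE 0.06), and between miR-150-5p and miR-342-3p it was 1.21 (spot SE 0.14). The last neighbours in this order, miR-181a-5p and miR-181b-5p, were 0.15 apart (spot SE 0.10). The spot SE holds no variation between mice, so it cannot show which of these gaps would recur in other mice. The probes also differ in base composition: those of miR-150-5p hold 50% and 53.3% G and C, those of miR-181a-5p and miR-181b-5p 61.5% to 69.2%. With a linear trend on GC content removed, the gap between miR-150-5p and the miR-181 mean was 1.56.

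One of the 4 measured members, miR-150-5p, was at least 2-fold higher in OVX, and over all 197 miRNAs measured on both arrays this was so for 2.03%. None of the 4 was at least 2-fold lower, again against 2.03% of all. At 1.5-fold the higher count was still 1 of 4, against 11.2% of all, and the lower count 0 of 4, against 14.7%. miR-150-5p ranked 2 of 197 from the highest. miR-342-3p ranked 59, miR-181a-5p 119 and miR-181b-5p 148, all in the body of the distribution, whose median was -0.04 and whose quartiles were -0.36 and 0.28. Above 0 lay 2 of the 4, against 47.2% of all, and below 0 the other 2, against 52.8%. The median of the 4 was 0.0077.

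**Figure D2:**
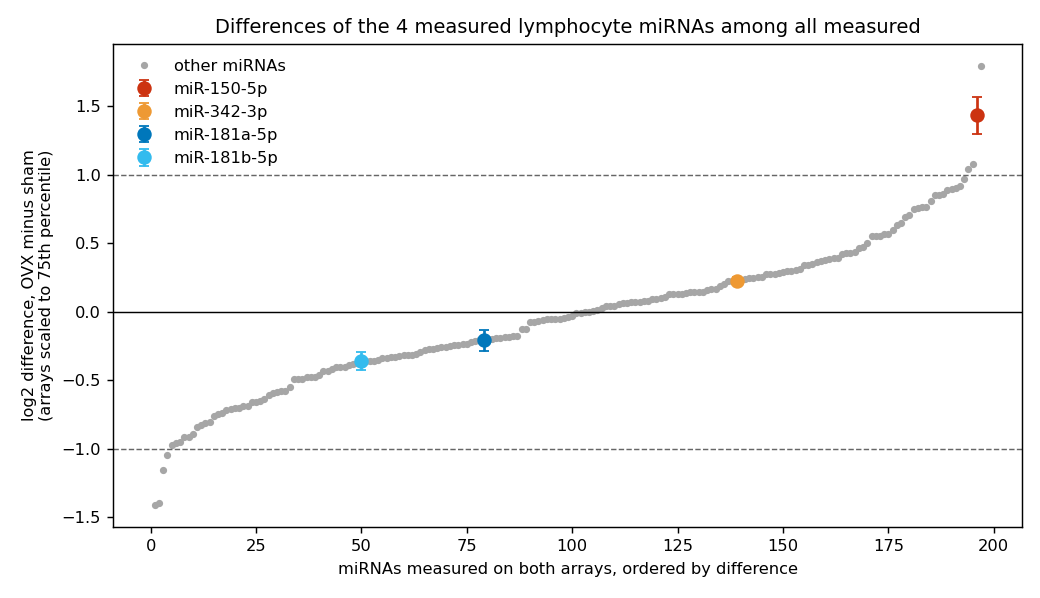
Log2 difference, OVX minus sham, of the 197 miRNAs measured on both arrays, ordered from lowest to highest, with dashed lines at 2-fold and the 4 measured lymphocyte miRNAs in colour with spot SE. miR-150-5p (1.43) is second from the top, and miR-342-3p (0.22), miR-181a-5p (-0.21) and miR-181b-5p (-0.36) lie in the middle part of the curve.

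The order miR-150-5p, miR-342-3p, miR-181a-5p, miR-181b-5p held under each of 12 other ways of processing the files, though the place of 0 moved. Settings that change only a constant per array cannot alter this order, so only the other settings could have changed it. Without scaling, all 4 were above 0, at 2.45, 1.24, 0.80 and 0.65 in that order, and with scaling to the control probes they were at 2.09, 0.88, 0.45 and 0.29. Whether the miR-181 differences lay above or below 0 thus depended on the scaling, and their unscaled signals were higher in OVX. Relative to the median of all 197 miRNAs, miR-181a-5p was at -0.17 and miR-181b-5p at -0.32 under each scaling by a constant. With normexp background correction, whose offset of 50 exceeds the mean sham signals of miR-150-5p, the miR-150-5p difference was 0.76 and no longer 2-fold.

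**Figure D3:**
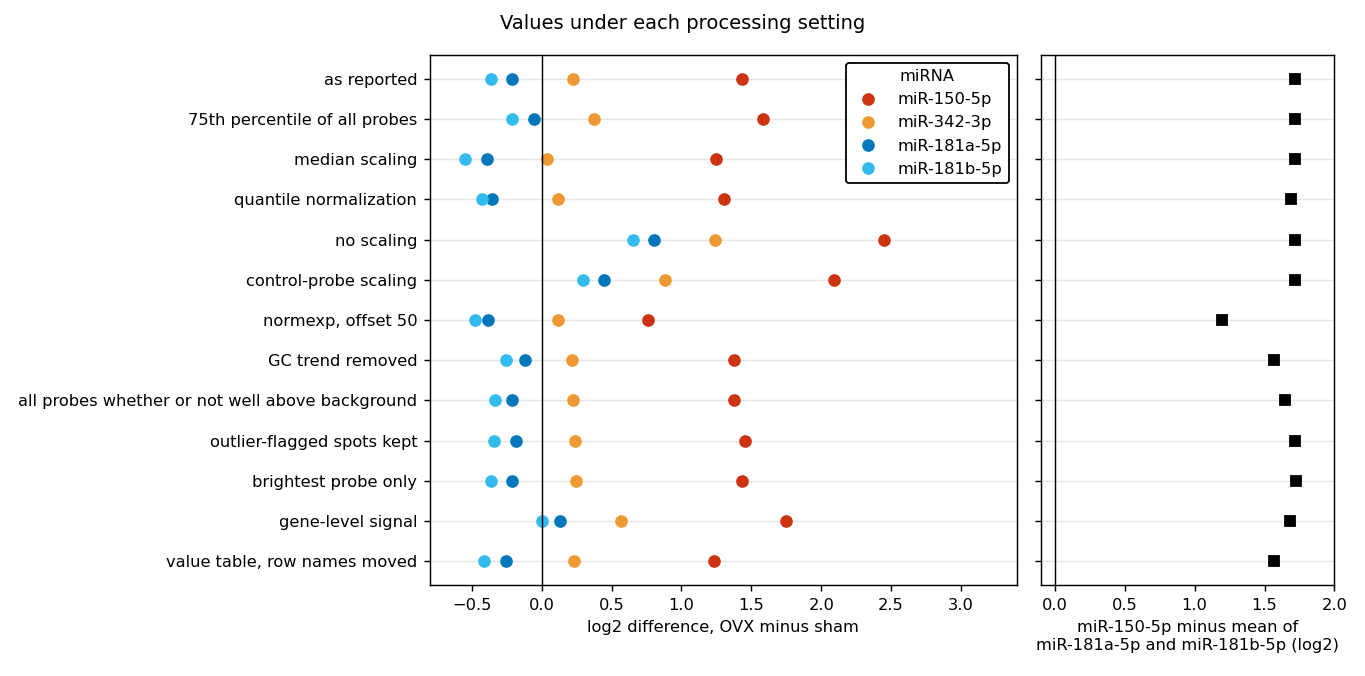
Left: log2 difference, OVX minus sham, of the 4 miRNAs measured on both arrays under the reported processing and 12 alternatives. Right: the gap between miR-150-5p and the mean of miR-181a-5p and miR-181b-5p under the same settings, from 1.19 with normexp to 1.72.

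The opposite arms of these hairpins gave no measurement. All 8 of them, miR-150-3p, miR-181a-1-3p, miR-181a-2-3p, miR-181b-1-3p, miR-181b-2-3p, miR-181c-3p, miR-181d-3p and miR-342-5p, had probes but none counted as present in either sample. The brightest was miR-181b-1-3p, at 5.39 in sham and 7.59 in OVX. The 3p arms of miR-181a and miR-181b carry the name of a single gene copy. With none of them present, the copies on chromosomes 1 and 2 could not be told apart.

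Other miRNAs listed for lymphocytes are given next, beside the 47.2% of all measured miRNAs that were above 0 and the 2.03% at least 2-fold higher. Which cells of the femur they came from was not tested. Of 7 listed for mature or resting cells, all were measured and 6 were above 0, with a median of 0.39 against -0.04 over all miRNAs measured. They ran from miR-30c-5p (-0.20) and miR-30b-5p (0.06) to miR-29c-3p (0.90) and miR-26b-5p (1.04), the last being the 1 member at least 2-fold higher. Of 6 listed for precursors and dividing cells, all from the miR-17 to miR-92 cluster, 5 were measured and 4 were above 0, with a median of 0.24. The highest were miR-19a-3p (0.57) and miR-19b-3p (0.43), and the lowest were miR-92a-3p (-0.40) and miR-18a-5p (0.20). Of 3 listed for activated cells, miR-21a-5p was measured, at 0.90 (spot SE 0.06). miR-155-5p, which is induced in activated B and T cells, had an unscaled brightest-probe signal of 17.6 in sham and 38.3 in OVX. For miR-146a-5p, induced by inflammatory signalling, it was 18.2 and 76.3. Both were present on the OVX array only, as were 102 of all 1881 miRNAs, against 5 on the sham array only. Of 3 miRNAs of early cells, miR-125b-5p was measured, at 0.34 (spot SE 0.08). Over all 197 miRNAs measured, the difference fell with the GC content of the probes (Spearman -0.32). Neither these lists nor the markers below were adjusted for it.

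Markers of other cells in femur differed between the arrays as well, and their part in these results was not tested. Of 4 granulocyte and monocyte markers, of which miR-142a is also made in lymphocytes, 3 were measured, 2 of them above 0, from miR-223-3p (-0.63) to miR-142a-5p (1.08), and their summed unscaled signal went from 9237 in sham to 13711 in OVX, a ratio of 1.48. All 4 red-cell markers were measured, 3 of them above 0, from miR-486a-5p (-0.71) to miR-144-5p (0.97), with a summed signal of 6826 and 16536, a ratio of 2.42. For the 6 lymphocyte miRNAs the summed signal was 423.6 and 1085, a ratio of 2.56. This sum mixes unlike ratios, against 2.02 for the arrays as a whole. By probe they were 5.45 and 5.03 for miR-150-5p, 2.39 and 2.33 for miR-342-3p, and 1.57 to 2.10 for the miR-181 members. Of 4 muscle markers none was present on both arrays, with sums of 58.4 and 57.0. miR-133b-3p (26.8 in sham, 16.3 in OVX) and miR-133a-3p (19.5 and 10.8) were present in sham only and dimmer on the OVX array, and miR-1a-3p and miR-206-3p were present on neither. The endothelial miR-126a-3p was at 0.77 (spot SE 0.04), and the 2 endothelial markers had sums of 57.4 and 190.7. Of 7 markers of stroma, bone and cartilage 2 were measured, miR-140-3p (-0.49) and miR-140-5p (0.17), with sums of 265.5 and 464.5, and miR-199a-3p was present in OVX only, with 8.12 in sham and 22.6 in OVX. The other 4, miR-199a-5p, miR-214-3p, miR-145a-5p and miR-143-3p, were present on neither array.

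**Figure D4:**
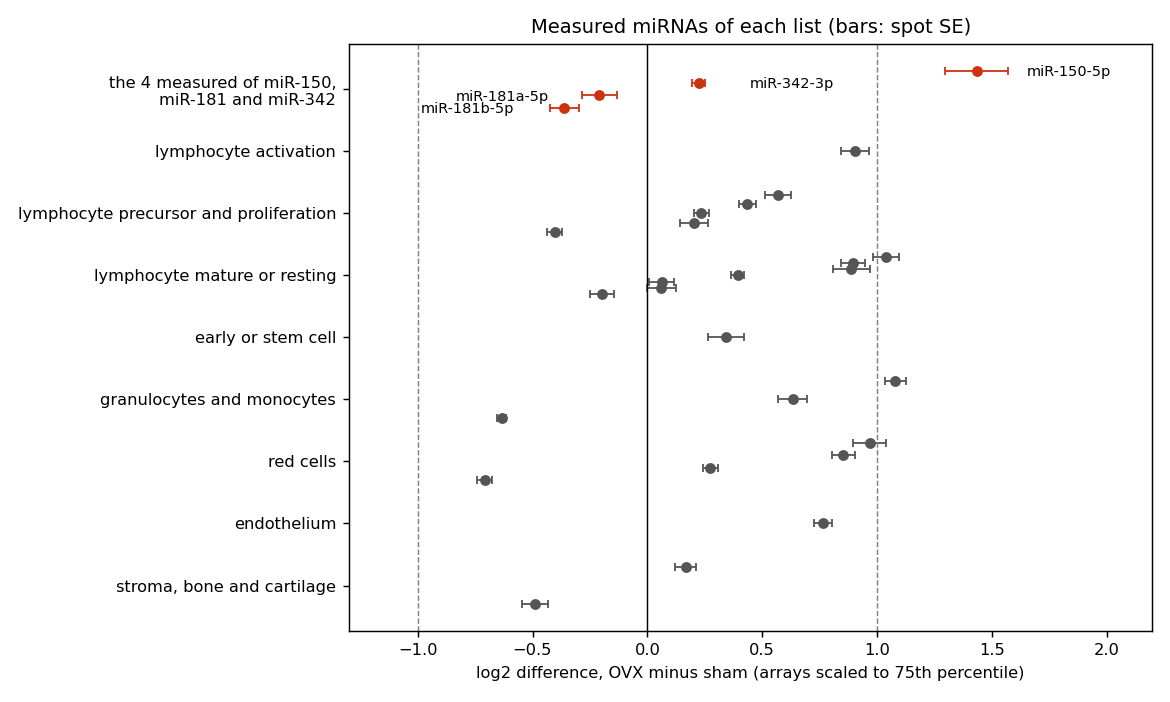
Log2 difference, OVX minus sham, of the miRNAs measured on both arrays in each list, with spot SE and dashed lines at 2-fold; the opposite arms and the muscle markers have none measured and are not drawn. miR-150-5p (1.43) lies above every other miRNA drawn, and the miR-181 members lie near miR-30c-5p (-0.20) and miR-92a-3p (-0.40).

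By distance on the log2 scale over the 2 arrays, the miRNAs nearest to miR-150-5p were miR-142a-5p (1.08, 0.35 away), miR-5121 (1.79, 0.36 away) and miR-26b-5p (1.04, 0.40 away). The miRNAs nearest to the miR-181 mean of -0.29 were miR-6973b-5p (-0.28), miR-705 (-0.29) and miR-30d-5p (-0.27), each within 0.02. With 2 arrays this likeness is no more than a similar difference.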

How the data were processed

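Femur RNA of 1 sham and 1 OVX pool was labelled with Cy3 per the labels' protocols, which name an amplification kit for cRNA; this is not the usual labelling for a miRNA array, and how the RNA was labelled is unsure. The deposited scanner files hold spot intensities from Agilent Feature Extraction, version 10.7.1.1 per the file headers and 11.0.1.1 per the submitters' processing notes; the authors' processed intensity is background-subtracted and not normalized between arrays. The deposited value table holds the authors' log2 values, made with a normalization that the labels do not state. Its column medians of -3.18 (sham) and -3.32 (OVX) are also the lowest values of their columns, so they do not show how it was centred. Its names fitted the scanner files only when moved by 1 row (Spearman 0.99 for each array with the gene-level intensity, against 0.04 and 0.06 as printed), so it served as an alternative. Its scale is log2 and its direction and centring are those of its columns, which are unstated.

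Control spots and spots with an outlier flag (1 member spot on the sham array, 3 on the OVX array) were left out; no miRNA spot was saturated. The mean processed intensity of each probe was put on the log2 scale, and each array's 75th percentile over probes present on both arrays was subtracted (Python 3.11.15, numpy 2.4.6, pandas 2.3.3). Normexp used limma 3.58.1 with an offset of 50 on mean and local background intensities. Alternatives were 12 settings and a 1.5-fold rule. The script was checked on simulated data. The number of arrays limits the precision. Sequences came from RefSeq (GRCm38.p6) and the deposited files.

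Named were the 6 members, from each list of other lymphocyte miRNAs the 2 highest and the 2 lowest, markers of other cells, and the 3 miRNAs nearest to miR-150-5p and to the miR-181 mean. Members and lists were chosen with earlier results of these data known.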

Additional observations from a re-analysis of the deposited data

How the results depend on the processing

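With 1 pooled sample per group, no setting gives a replicate check. No paired analysis was possible because each group has 1 sample. A value was taken as unmoved when it stayed within the SD between probes of a miRNA, 0.11. Differences are given in the order miR-150-5p, miR-181a-5p, miR-181b-5p, miR-342-3p. They were 1.59, -0.058, -0.21 and 0.38 with the 75th percentile of all probes, 1.25, -0.39, -0.55 and 0.040 with median scaling, and 2.45, 0.80, 0.65 and 1.24 without scaling. They were 2.09, 0.45, 0.29 and 0.88 with control-probe scaling (27 control probes) and 1.75, 0.13, -0.00034 and 0.57 with the gene-level signal. miR-181a-5p thus changed sign under these last 3 settings and miR-181b-5p under no scaling and control-probe scaling. With quantile normalization miR-150-5p was at 1.30 and miR-181a-5p at -0.35. With normexp miR-150-5p was at 0.76, miR-181a-5p at -0.38 and miR-181b-5p at -0.47. In the value table miR-150-5p was at 1.23. The gap between miR-150-5p and the miR-181 mean was 1.19 with normexp, 1.56 with the GC trend removed and 1.57 in the value table; the 9 other settings gave 1.65 to 1.72. The number of members at least 2-fold apart was 2 without scaling, 0 with normexp and 1 otherwise, also at 1.5-fold. miR-150-5p ranked 2 of 197 except with normexp (1) and in the value table (3). The 75th percentile of all probes, median scaling, no scaling and control-probe scaling change only a constant per array. Under these the gap and the rank are fixed in advance. miR-181c-5p and miR-181d-5p had no probe counted as present in sham. In the value table they differed by -2.66 and -2.77, from 2.30 and 2.46 in sham to -0.37 and -0.31 in OVX. With the gene-level signal they differed by 0.17 each. Their unscaled gene-level signals were higher in OVX, at 6.02 against 2.58 and 12.6 against 5.39 in sham. The cause of this disagreement was not tested. Over all 197 miRNAs the number at least 2-fold higher was 4 as reported, 97 without scaling, 41 with control-probe scaling, 15 with the gene-level signal, 12 with the 75th percentile of all probes, 6 with all probes of a miRNA, 2 with median scaling, 2 with the GC trend removed and 0 with normexp. The number at least 2-fold lower was 4, and 12 with median scaling, the gene-level signal or the value table, 8 with quantile normalization, and 0 without scaling, with control-probe scaling or with normexp. Of signal over background, the lowest counted as present in sham was 17.8; the miR-150-5p probe used had 46.4 there and its other probe 16.1.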
